A study of Mus musculus with 9 samples.

Results

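Gene expression of bone marrow stroma was compared between mice in the early phase of a leukemia (E, 3 arrays) and wild type mice (WT, 3 arrays), across all genes. Both groups were FVB/NJ mice. The cells were sorted from bone marrow as those carrying neither CD45.1, a marker of leukocytes, nor Ter119, a marker of maturing red cells. Group E came from leukemic recipients whose marrow held 1 to 5% leukemic cells; the driver of the leukemia, the age and sex of the mice, and any treatment of the recipients or the wild type mice are not given in the sources used here. The labels call the arrays of a group biological replicates and do not say whether an array held 1 animal or a pool. The 6 arrays are part of a series of 9, whose other 3 come from the medium phase (M, 5 to 50% leukemic cells) and serve here for the choice of probe sets and for values given side by side. A latent and a late phase that the series also names were not analysed here. The stated question of the series was how the expression of stromal cells shifts as the leukemia advances, and the comparison of E with WT is its earliest step.

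Bone marrow stroma is the part of the marrow that is not blood: mesenchymal cells that make fat, bone and cartilage, fibroblasts, vessel walls and nerve. It lays down the matrix of the marrow and supplies blood-forming cells with factors such as Cxcl12, which holds stem cells in place, and Kit ligand. A sort by absence of leukocyte and red cell markers also lets through any cell that carries neither, including early red cell precursors that have not yet gained Ter119.

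Values were log2 signals, so a difference of 1 is a doubling of the signal, and each difference below is the mean of E minus the mean of WT with its standard error from the fit. One probe set stood for each of 18193 genes, the one with the highest mean over the 9 arrays, and the 9097 genes with a mean of 6.42 or more over the 6 arrays were tested. This filter takes both groups together, so a gene dim in either group could pass through the other. Among rises named below, Acta1, Wfdc21 and Vpreb1 passed through E, with WT means under the filter. Among falls, Flt3, Bmp2, Ccl3, Col10a1, Timp3 and Postn passed through WT, with E means under it. Such genes enter the counts of called genes. Added poly-A control RNAs differed by -0.007 (exact permutation test, two-sided p = 1), and the difference between 3' and 5' probe sets of Actb was 1.06 in both groups. The median of all probe sets was 5.64 ± 0.04 in WT and 5.50 ± 0.09 in E (SD, n = 3, exact permutation test, p = 0.1, the smallest that 3 arrays against 3 allow). Log2 values of exactly 0 numbered 499.7 ± 17.0 of 45101 probe sets in WT and 663.7 ± 100.1 in E (SD, n = 3, exact permutation test, p = 0.1), with no overlap between the groups. The root mean square difference between 2 arrays averaged 0.239 within WT, 0.227 within E and 0.316 across the groups. On the first principal component, with 46.9% of the variance, the WT arrays lay between -13.1 and -10.5 and the E arrays between 11.5 and 12.3.

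The labelled cell type was checked against marker lists. Of 24 markers of mesenchymal niche cells on the array 11 passed the brightness filter, as did 5 of 24 endothelial markers and 3 of 15 of pericytes and smooth muscle, while 20 of 21 genes of the red cell membrane and hemoglobin and 22 of 23 pan-leukocyte genes passed. The vessel wall genes Cdh5 and Pecam1 were under the filter, with means of 5.46 and 4.07 in WT and 5.14 and 3.64 in E. Cartilage and collagen genes were well represented, with 29 of 35 and 22 of 42 over the filter. The RNA thus held transcripts of red cell precursors and leukocytes beside those of mesenchyme in both groups, and in such bulk samples fewer cells of a type and less RNA per cell cannot be told apart.

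Of the 9097 genes tested, 719 (7.90%) passed an adjusted p of 0.05 for a difference of E from WT (limma moderated test, Benjamini-Hochberg), 261 higher (2.87%) and 458 lower (5.03%) in E. In each of the 719 the arrays of the 2 groups did not overlap, which was so for 2677 (29.4%) of all genes tested. The median called fall was -0.52 and the median called rise 0.32, and 64 genes fell by more than 1 against 14 that rose by more than 1. Rises lay mostly among bright genes, with 20 among the 2275 dimmest tested genes and 111 among the 2274 brightest, while falls were spread evenly, with 113 and 103. Within the dimmest genes the median called rise was 0.88 and the median called fall -0.82, and within the brightest they were 0.24 and -0.28. The split depends on the scale. Centring each array on its median moved the median of all tested genes from 0.01 to 0.14 and turned the split to 1269 higher and 265 lower, and scaling on the poly-A controls gave 52 higher and 213 lower. With the M arrays in the fit, whose pairs differed by 0.364 on average, 187 genes were called, all of them among the 719. Without any 1 array, 381 to 568 genes were called, the fewest without WT replicate 2, followed by 392 without E replicate 2 and 414 without E replicate 1. A set of 290 genes, 70 higher and 220 lower, was called without each of the 6 arrays in turn, and every gene named below as having risen or fallen belongs to it unless stated.

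**Figure D1:**
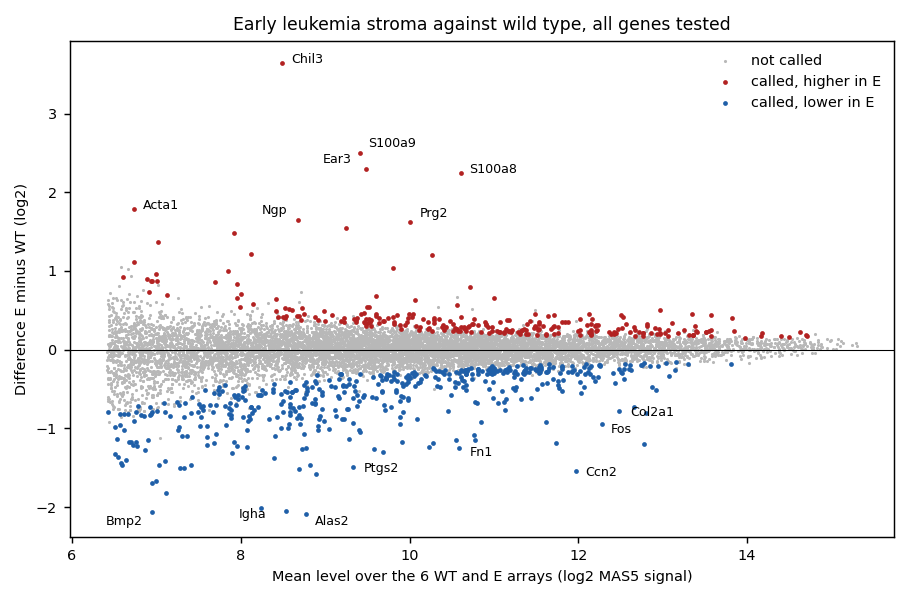
Difference between E and WT (log2, vertical axis) against mean level over the 6 arrays (log2 MAS5 signal, horizontal axis) for the 9097 genes tested, with the 261 genes called higher in red and the 458 called lower in blue. Rises beyond 1 are few. Falls beyond 1 occur among dim and bright genes, but called falls were larger among dim ones, with a median of -0.82 in the dimmest tested genes and -0.28 in the brightest.

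The largest rises were in genes of granulocytes. Chil3, a chitinase-like protein stored by neutrophils and made by activated macrophages, read 6.78, 6.66 and 6.56 in WT and 10.25, 10.27 and 10.40 in E, a difference of 3.64 ± 0.11 (adjusted p = 3.1e-09). The alarmin S100a9, which with its partner forms the main calcium-binding protein of the neutrophil cytosol, read 8.11, 8.03 and 8.34 in WT and 10.60, 10.62 and 10.75 in E (2.50 ± 0.10, adjusted p = 2.9e-08). Its partner S100a8 read 9.47, 9.38 and 9.60 in WT and 11.59, 11.67 and 11.93 in E (2.24 ± 0.09). In all 3 genes the lowest E array stood far above the highest WT array. Ngp and Camp, antimicrobial proteins of the later neutrophil granules, rose by 1.65 ± 0.10 and 1.48 ± 0.16, and the whey acidic protein family member Wfdc21 by 1.12 ± 0.20. Of 11 tested genes of late neutrophil granules and alarmins 7 rose and 0 fell, with a median of 1.12 against 0.01 over all genes tested. Over all tested genes 2.87% rose. A further 16 members of the list were under the filter, and the median of all 27 on the array was 0.64. High E values help a gene pass the filter, so the median of the tested members leans upward. The log2 of the summed signal of the whole list was 12.24 to 12.43 in WT and 13.47 to 13.68 in E.

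Genes of the earlier granules, made in promyelocytes, did not follow. None of 14 rose and 4 fell, or 1 with median centring, 1 with spike-in scaling and 2 with all 9 arrays. Over all tested genes 2.87% rose and 5.03% fell. Mpo, the myeloperoxidase of the primary granule, read 12.36, 12.23 and 12.33 in WT and 11.74, 11.76 and 11.76 in E, a fall of 0.55 ± 0.05 (adjusted p = 5.5e-05), and the protease Ctsg fell by 0.40 ± 0.07, a call that median centring (adjusted p = 0.058) and spike-in scaling (0.2) ended. Without 1 array the count of 4 was 2 to 4, with 2 left without WT replicate 1, E replicate 1 or E replicate 2. Among 22 tested pan-leukocyte genes 4 fell (18.2%, against 5.03% of all tested genes) and 0 rose, with a median of -0.20. The count was 1 with all 9 arrays and 2 with the mean of probe sets. The median was -0.07 with median centring and -0.03 among the brightest genes alone. Ptprc, which encodes the CD45 protein used in the sort, had means of 9.76 in WT and 9.59 in E and was not called (adjusted p = 0.29). Lcp1, an actin bundling protein of leukocytes, fell by 0.78 ± 0.13. The summed signal of the pan-leukocyte list was 14.83 to 14.94 in WT and 14.75 to 14.82 in E. The part of granulocyte RNA in the other differences was not tested.

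A pair of eosinophil granule genes rose as well. Ear3, an eosinophil-associated ribonuclease, read 8.49, 8.33 and 8.19 in WT and 10.39, 10.68 and 10.85 in E, a difference of 2.30 ± 0.12 (adjusted p = 2.7e-07). Prg2, the major basic protein, read 9.22, 9.29 and 9.09 in WT and 10.78, 10.73 and 10.95 in E (1.62 ± 0.08, adjusted p = 2.7e-07). Of 7 tested genes of eosinophils, basophils and mast cells these 2 rose and 1 fell, the mast cell protease Cpa3, with a list median of 0.07. The shares over all tested genes were 2.87% and 5.03%. Ear3 and Prg2 were called in every setting that tested them, while the fall of Cpa3 was lost without any 1 array other than E replicate 3 (adjusted p from 0.063 to 0.081), with all 9 arrays (0.14) and with spike-in scaling (0.11). Ear3 belongs to a family of near-identical genes, so its probe set may also bind its relatives.

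Immunoglobulin genes moved in both directions. Ighm, the heavy chain of IgM, read 9.55, 9.95 and 9.51 in WT and 10.96, 10.85 and 10.79 in E, a rise of 1.20 ± 0.11, and Vpreb1, part of the surrogate light chain of B cell precursors, read 6.19, 6.57 and 6.25 in WT and 7.77, 7.32 and 8.03 in E, a rise of 1.37 ± 0.21. In contrast, Igha, the heavy chain of IgA, read 9.23, 9.68 and 9.77 in WT and 8.37, 6.88 and 7.28 in E, with E replicate 1 nearer to WT than the other 2 E arrays, and fell by 2.05 ± 0.29 (adjusted p = 0.001). Jchain, which joins secreted IgA and IgM, read 8.12, 8.15 and 8.18 in WT and 7.14, 7.05 and 6.94 in E and fell by 1.11 ± 0.14. Over the lists, 2 of 8 tested B lineage genes rose and 2 fell, and 1 of 6 plasma cell and immunoglobulin genes rose and 2 fell. Among all tested genes 2.87% rose and 5.03% fell. Both rises were lost with all 9 arrays, at an adjusted p of 0.26 for Ighm and 0.15 for Vpreb1, while both falls were kept. The WT mean of Vpreb1 lay under the brightness filter, so Vpreb1 was tested only through its high E arrays.

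**Figure D2:**
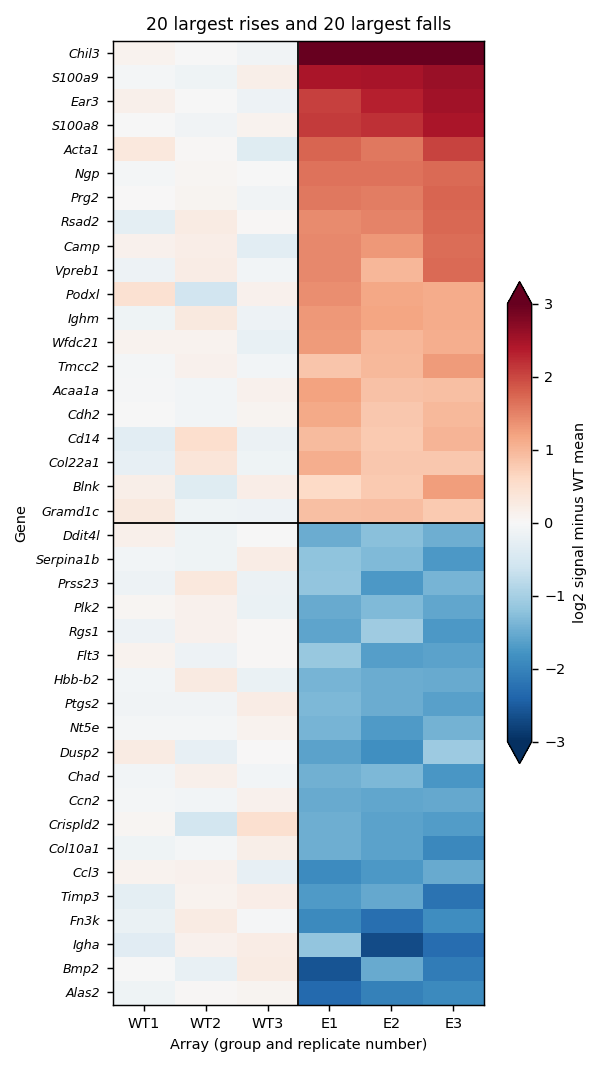
Signal of each WT and E array minus the WT mean (log2, colour scale from -3 to 3; Chil3 runs past its upper end) for the 20 largest rises and 20 largest falls among called genes with arrays that did not overlap. Granulocyte and B lineage genes fill much of the upper block, and matrix, signalling and red cell genes the lower block. In the upper block, Cd14, Col22a1, Blnk and Gramd1c lost their call without some single arrays, and Cd14, Blnk, Rsad2, Tmcc2, Ighm and Vpreb1 were lost with all 9 arrays. With the mean of probe sets Cdh2, Cd14, Col22a1 and Blnk were lost. In the lower block Alas2, Fn3k and Hbb-b2 were lost with all 9 arrays.

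Further large rises came from single genes of varied kinds. Acta1, the actin of skeletal muscle, read 6.16, 5.88 and 5.49 in WT and 7.58, 7.43 and 7.88 in E, a rise of 1.78 ± 0.23 (adjusted p = 0.00046). Its WT arrays all lay under the filter of 6.42, so it was tested only through its E arrays. It was 1 of only 2 skeletal muscle genes over the filter of 16 on the array. The median of all 16 was 0.94, and with no brightness filter 2 of them were called higher. Rsad2, the interferon-induced antiviral enzyme viperin, read 8.19, 8.72 and 8.51 in WT and 9.90, 9.96 and 10.19 in E, a rise of 1.54 ± 0.13. No other of 22 tested interferon stimulated genes rose, and 1 fell. Podxl, a sialylated surface protein of vessels and of blood progenitors, rose by 1.22 ± 0.21, with its WT arrays spread from 6.94 to 7.96. Tmcc2, a membrane protein abundant in red cell precursors, rose by 1.03 ± 0.11, the adhesion protein N-cadherin (Cdh2) by 0.97 ± 0.18 and the peroxisomal thiolase Acaa1a by 0.99 ± 0.14. With all 9 arrays Rsad2 (adjusted p = 0.28) and Tmcc2 (0.53) were no longer called, and with probe sets averaged per gene Cdh2 was not (0.22).

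Small rises were found among genes of protein synthesis, protein breakdown and nucleotide supply. Of 76 mitochondrial ribosomal protein genes 9 rose and 0 fell, with a median of 0.13, against 2.87% of all tested genes that rose. Among them Mrps18b read 11.35, 11.30 and 11.45 in WT and 11.73, 11.68 and 11.67 in E and Mrpl34 12.07, 12.02 and 12.05 in WT and 12.31, 12.37 and 12.37 in E, rises of 0.33 ± 0.06 and 0.30 ± 0.05. Of 39 proteasome genes 5 rose, of 43 genes of ribosome assembly 4, of 33 genes of purine and pyrimidine synthesis 6 and of 54 genes of the respiratory chain and ATP synthase 6. In the purine and pyrimidine list 1 gene fell, the ectoenzyme Nt5e, and 1 fell in the respiratory list, Cox7c, a subunit of cytochrome oxidase. Cox7c was not called without WT replicate 1, WT replicate 2, E replicate 1 or E replicate 2 (adjusted p from 0.068 to 0.078) or with all 9 arrays (0.13). Its call was also lost with spike-in scaling (adjusted p = 0.0817), the mean of probe sets (0.175) and less specific probe sets left out (0.326). Examples of rises were Cad, which starts pyrimidine synthesis (0.43 ± 0.06), Adsl of purine synthesis (0.30 ± 0.05), Rrp12, a ribosome assembly factor (0.45 ± 0.08), and Phgdh, the first enzyme of serine synthesis (0.45 ± 0.06).

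The directions of these list medians held under every scaling, but the counts did not. With median centring the mitochondrial ribosomal count was 40 and the respiratory count 24, and with spike-in scaling they were 1 and 0. With all 9 arrays the mitochondrial ribosomal count was 0, and it was 4 without WT replicate 2 or E replicate 1, 5 without E replicate 2 and 6 without WT replicate 1. The respiratory count of 6 was 0 without WT replicate 2 or E replicate 1, 1 without E replicate 2 or E replicate 3, 2 without WT replicate 1 and 8 without WT replicate 3. The ribosome assembly count of 4 was 1 without WT replicate 2 or E replicate 2, 2 without E replicate 1 and 3 to 6 without any other array. The proteasome count of 5 was 2 without WT replicate 1, E replicate 1 or E replicate 3 and 3 without any other array. The purine and pyrimidine count of 6 was 2 without WT replicate 2, 3 without E replicate 1 or E replicate 2, 4 without WT replicate 1 and 5 without either of the others. Spike-in scaling ended the calls of Mrps18b (adjusted p = 0.34), Mrpl34 (0.4), Cad (0.085), Adsl (0.48) and Rrp12 (0.081). All 9 arrays ended those of Mrps18b (0.056), Mrpl34 (0.2), Adsl (0.083) and Phgdh (0.18), and the mean of probe sets those of Mrpl34 (0.29) and Cad (0.12).

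Most genes of hypoxia and glycolysis did not pass: of 30 tested 4 rose and 3 fell, with a median of 0.02. Tpi1, Aldoa and Ldha, enzymes of glycolysis, rose by 0.27 ± 0.05, 0.35 ± 0.05 and 0.30 ± 0.05. The glucose transporter Slc2a1 read 8.51, 8.58 and 8.66 in WT and 7.53, 7.40 and 7.75 in E and fell by 1.02 ± 0.13 (adjusted p = 0.00046), and Ndrg1, a gene induced by low oxygen, fell by 0.79 ± 0.12. The 3 enzymes were not called with spike-in scaling, at an adjusted p of 0.47, 0.26 and 0.25, nor was Ldha without the trend (0.06). In lipid handling, the fatty acid binding protein Fabp5 rose by 0.44 ± 0.05, reading 13.40, 13.29 and 13.37 in WT and 13.79, 13.80 and 13.79 in E.

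Most of the cartilage genes tested fell. Of 29 tested cartilage genes 19 fell and 0 rose, against 5.03% of all tested genes that fell, and the median was -0.73. The collagen of hyaline cartilage, Col2a1, read 12.79, 12.79 and 13.04 in WT and 12.15, 12.10 and 12.05 in E and fell by 0.77 ± 0.07 (adjusted p = 2.3e-05). Comp, a protein that binds cartilage collagen, read 12.28, 12.21 and 12.48 in WT and 11.18, 11.24 and 10.99 in E and fell by 1.18 ± 0.08 (adjusted p = 3.1e-06). Col10a1, the collagen of hypertrophic chondrocytes, read 7.71, 7.78 and 8.01 in WT and 6.37, 6.22 and 5.89 in E, a fall of 1.67 ± 0.19. No E array reached the lowest WT array in these 3 genes. Chad, which anchors chondrocytes to collagen, fell by 1.52 ± 0.13, the chondrocyte proteins Scrg1 and Epyc by 0.97 ± 0.09 and 0.74 ± 0.12, the channel protein Panx3 by 1.09 ± 0.18, and the minor cartilage collagens Col9a1 and Col11a1 by 0.73 ± 0.06 and 0.68 ± 0.07. Sox6, a transcription factor of both chondrocytes and red cell precursors, fell by 1.02 ± 0.13. The count of 19 was 16 with all 9 arrays, where Epyc was lost (adjusted p = 0.055), 18 with either scaling, and 17 to 19 without 1 array. The log2 summed signal of the list was 15.36 to 15.57 in WT and 14.66 to 14.74 in E.

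Collagens moved in both directions. Over all 22 tested collagens 4 rose and 10 fell, against 2.87% and 5.03% of all tested genes. Of the rises, 3 were fibril-forming chains of bone and fibrous tissue. Col1a1 read 10.52, 10.82 and 10.68 in WT and 11.34, 11.24 and 11.42 in E and rose by 0.66 ± 0.08 (adjusted p = 0.00032), Col5a2 read 10.16, 10.31 and 10.36 in WT and 10.89, 10.84 and 10.83 in E and rose by 0.57 ± 0.07, and Col1a2 rose by 0.40 ± 0.07. The fourth was Col22a1, whose call was lost without WT replicate 1, WT replicate 3, E replicate 1 or E replicate 2 (adjusted p from 0.057 to 0.099) and with the mean of probe sets (0.29). Among the falls were chains of the beaded filament collagen VI: Col6a3 read 10.52, 10.41 and 10.57 in WT and 9.32, 9.38 and 9.29 in E and fell by 1.17 ± 0.07 (adjusted p = 1.4e-06), and Col6a2 fell by 1.01 ± 0.11. Col1a2 was not called without the trend (adjusted p = 0.058) or with the mean of probe sets (0.14), while Col1a1, Col5a2, Col6a2 and Col6a3 were called in every setting that tested them.

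Several other matrix genes of fibroblasts fell. Fibronectin (Fn1) read 11.27, 11.03 and 11.33 in WT and 9.89, 10.02 and 9.95 in E and fell by 1.25 ± 0.08 (adjusted p = 2e-06). Periostin (Postn), which binds fibronectin and collagen, read 7.60, 7.34 and 7.55 in WT and 6.03, 6.25 and 6.41 in E and fell by 1.27 ± 0.19. The collagen XII chain Col12a1 fell by 0.86 ± 0.11, a call lost with all 9 arrays (adjusted p = 0.051), Pcolce2, an enhancer of procollagen processing, by 0.76 ± 0.09, and the intermediate filament vimentin (Vim) by 0.48 ± 0.07. Of 19 tested genes of fibroblast matrix 4 rose and 9 fell, with a median of -0.18 that was 0.006 among the brightest genes alone. The summed signal of that list did not separate the groups, at 15.26 to 15.46 in WT and 15.34 to 15.39 in E.

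Single genes that regulate matrix and growth were among the larger falls, while most members of the lists that hold them did not pass. Ccn2, connective tissue growth factor, read 12.70, 12.66 and 12.88 in WT and 11.23, 11.18 and 11.21 in E and fell by 1.54 ± 0.06 (adjusted p = 2.9e-08). Its arrays within a group lay close together, and the groups far apart. Timp3, an inhibitor of matrix proteases, read 7.73, 8.12 and 8.23 in WT and 6.34, 6.48 and 5.80 in E and fell by 1.82 ± 0.22, and its relative Timp1 fell by 0.94 ± 0.10. Bmp2, a bone-inducing growth factor, read 7.97, 7.75 and 8.23 in WT and 5.40, 6.48 and 5.87 in E and fell by 2.06 ± 0.26 (adjusted p = 0.00042), with more spread among the E arrays than among the WT arrays. The platelet-derived growth factor chain Pdgfa fell by 1.18 ± 0.20, the secreted protein Crispld2 by 1.58 ± 0.20, the serine protease Prss23 by 1.44 ± 0.23, the syndecan Sdc4 by 0.84 ± 0.11, the integrin chain Itgav by 0.67 ± 0.09, and Pmepa1, a gene induced by TGF-beta that restrains its signal, by 0.85 ± 0.12. Of 12 tested CCN family members and other YAP targets 5 fell and 0 rose, with 1 called with all 9 arrays. Among all tested genes falls made up 5.03% and rises 2.87%. In the TGF-beta list 4 of 18 tested genes fell and 1 rose, with a median of 0.003. Of 11 tested growth factors of vessels and stroma 3 fell, as did 2 of 13 matrix proteases and inhibitors, Timp1 and Timp3, and 0 rose in either list. The call of Pdgfa ended with the mean of probe sets (adjusted p = 0.11).

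The niche factors themselves showed less among genes over the filter. Cxcl12 read 8.61, 8.53 and 8.75 in WT and 8.82, 8.80 and 8.93 in E, a difference of 0.22 ± 0.10 that was not called (adjusted p = 0.2). Lepr, the leptin receptor that marks perivascular stroma, read 6.95, 6.56 and 7.34 in WT and 7.17, 6.43 and 6.98 in E (adjusted p = 0.87), and Pdgfrb, a receptor of mesenchymal cells, had means of 6.94 and 6.82 (adjusted p = 0.75). Kitl and Pdgfra were under the filter. Kitl read 6.33, 6.01 and 6.73 in WT and 5.74, 5.65 and 5.96 in E. Pdgfra read 5.21, 5.68 and 6.08 in WT and 7.04, 6.78 and 6.87 in E, a difference of 1.24. With all 18193 genes tested its adjusted p was 0.048 against 0.42 for Kitl. With the filter taken over all 9 arrays it was 0.0135 against 0.205 for Kitl. The arrays of Cxcl12, Kitl and Pdgfra did not overlap between WT and E, as was so for 29.4% of all genes tested. Of 11 tested niche genes 0 rose and 1 fell, Igfbp4, a binding protein of insulin-like growth factors (-0.50 ± 0.10), whose call was lost with all 9 arrays (adjusted p = 0.11), spike-in scaling (0.078) and the mean of probe sets (0.66). The count of rises was 1 without the brightness filter and with the filter over all 9 arrays, where the gene was Pdgfra. It was also 1 with median centring, where Pdgfra was not tested and Cxcl12 was called (adjusted p = 0.0397).

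Many genes of the early response to stimulation fell, and none rose. These genes are switched on within minutes of a growth factor, stress or tissue disruption, and encode transcription factors and feedback inhibitors of signalling. Fos read 12.69, 12.79 and 12.76 in WT and 11.72, 11.86 and 11.85 in E and fell by 0.94 ± 0.05 (adjusted p = 8.5e-07). Jun, which pairs with Fos in the AP-1 factor, read 11.35, 11.30 and 11.28 in WT and 10.14, 10.35 and 10.20 in E and fell by 1.08 ± 0.07 (adjusted p = 1.4e-06). Dusp1, a phosphatase that switches off stress-activated kinases, read 11.27, 11.32 and 11.45 in WT and 10.11, 10.30 and 10.19 in E and fell by 1.14 ± 0.07 (adjusted p = 1.4e-06). In each of these genes all E arrays lay well below all WT arrays. Egr1 fell by 0.65 ± 0.07, the growth-restraining gene Btg2 by 1.14 ± 0.10, the kinase Plk2 by 1.46 ± 0.16, the small GTPase Rhob by 1.31 ± 0.14, Errfi1, an inhibitor of the EGF receptor, by 0.78 ± 0.08, Zfp36, which destabilises cytokine mRNA, by 1.17 ± 0.16, Klf4 by 0.75 ± 0.13, and the glucocorticoid-induced kinase Sgk1 by 1.19 ± 0.09. The related phosphatases Dusp2 and Dusp6 fell by 1.51 ± 0.21 and 0.88 ± 0.14.

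Counted by list, 4 of 9 AP-1 genes fell and 0 rose (median -0.67), as did 14 of 37 other early response genes (median -0.21) and 3 of 10 dual specificity phosphatases and related feedback genes (median -0.10, and 0.04 with median centring). The called shares were 44.4%, 37.8% and 30%, against 5.03% of all tested genes that fell. With all 9 arrays the early response count was 8 of 37, and without 1 array 11 to 14.

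Among these early response and inflammatory genes, 5 shared a letter-perfect cyclic AMP response element before their start. The element TGACGTCA, a palindrome that is the same on both strands and to which CREB and related factors bind, was searched in the 250 bases before each gene's start in RefSeq windows of build GRCm38.p6, and was chosen after the values were seen. Of the 31 genes of these classes that fell, 28 had a window and 5 held the element (17.9%), against 3.19% of the 7489 tested genes with a window and 1.77% of all 27025 genes in the table. They were Btg2, Dusp1, Errfi1, Plk2 and Ppp1r15a. The last fell by 0.51 ± 0.12, a call lost without WT replicate 1 (adjusted p = 0.058), WT replicate 2 (0.099), E replicate 2 (0.084) or E replicate 3 (0.077), with all 9 arrays (0.21), without the trend (0.11) and with the mean of probe sets (0.077). The stretches below show the other 4 genes in gene orientation, 5′ to 3′, with the element in capitals, to let a reader see how differently placed and flanked it is. The stretches lie at chr1:134079284-134079351 (minus strand), chr17:26508578-26508645 (minus strand), chr4:150854989-150855056 (plus strand) and chr13:110394952-110395019 (plus strand), with the element starting 166, 143, 51 and 62 bases before the gene's start.
Btg2: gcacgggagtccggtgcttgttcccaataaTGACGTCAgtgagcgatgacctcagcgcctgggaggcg
Dusp1: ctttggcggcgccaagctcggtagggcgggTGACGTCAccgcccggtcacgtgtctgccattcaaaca
Errfi1: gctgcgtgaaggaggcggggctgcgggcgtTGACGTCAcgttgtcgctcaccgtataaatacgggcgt
Plk2: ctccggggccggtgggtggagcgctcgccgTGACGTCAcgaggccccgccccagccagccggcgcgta
In Errfi1 a TATA-like run follows the element. A match in letters is a description of the sequence and not a binding site, and no match in the other windows says only that these letters are not there. Members of the same lists that did not fall were not compared, so the share holding the element cannot be tied to the falls.

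Single genes of inflammation fell as well, while most members of their lists did not pass. Ptgs2, the inducible enzyme of prostaglandin synthesis, read 9.97, 9.96 and 10.29 in WT and 8.72, 8.59 and 8.44 in E and fell by 1.49 ± 0.11 (adjusted p = 5.7e-06). The chemokine Ccl3, which attracts monocytes, read 7.90, 7.92 and 7.55 in WT and 5.91, 6.07 and 6.29 in E and fell by 1.70 ± 0.19 (adjusted p = 0.00021). Cxcl1, which attracts neutrophils, averaged 9.10 in WT and 8.23 in E and fell by 0.87 ± 0.15. Nfkbia, the inhibitor that NF-kB itself induces, fell by 0.81 ± 0.07, and Rgs1, a brake on chemokine receptors, by 1.46 ± 0.21. The cytokine Il16 fell by 1.33 ± 0.24, and the small heat shock protein Hspb1 by 1.21 ± 0.14. Of 12 tested cytokines and chemokines 4 fell and 0 rose, 2 of them with all 9 arrays, and 24 more were under the filter. Of the 12, 6 lay above 0 and 6 below. In the prostaglandin list 1 of 8 tested genes fell and 0 rose, with a median of 0.08. The NF-kB list had 2 of 11 lower and 1 higher, and the RGS list 3 of 8 lower and 0 higher. Over all tested genes 5.03% fell and 2.87% rose. Of 22 interferon stimulated genes 20 were not called.

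Several genes of dendritic cells, monocytes and early progenitors fell. Irf8, a factor that directs monocyte and dendritic cell fate, read 9.15, 9.32 and 9.37 in WT and 8.40, 8.08 and 8.17 in E and fell by 1.07 ± 0.11 (adjusted p = 0.00014). Flt3, the receptor of multipotent and dendritic progenitors, read 7.43, 7.18 and 7.37 in WT and 6.18, 5.68 and 5.72 in E and fell by 1.47 ± 0.22 (adjusted p = 0.0014). Csf1r, the receptor that monocytes and macrophages need, read 9.80, 9.67 and 9.49 in WT and 8.75, 8.63 and 8.96 in E and fell by 0.88 ± 0.11. Sox4, a factor of lymphoid progenitors and other immature cells, fell by 0.68 ± 0.06, and the progenitor surface proteins Cd34 and Cd93 by 0.85 ± 0.14 and 0.99 ± 0.11. Acp5, the acid phosphatase that marks osteoclasts, fell by 1.05 ± 0.11, the only call among 7 tested osteoclast genes. By list, 2 of 8 dendritic cell genes fell and 0 rose, 3 of 9 macrophage and monocyte genes fell and 1 rose, and 4 of 19 stem and progenitor genes fell and 1 rose. Beside these stand 5.03% of all tested genes that fell and 2.87% that rose, and the first 2 lists are short. Cd34 was lost with all 9 arrays (adjusted p = 0.066), and Csf1r (0.087) and Cd93 (0.16) with the mean of probe sets. Flt3, whose E mean lay under the brightness filter, was not tested when the filter was taken over all 9 arrays.

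Some genes of late red cell maturation fell, and most did not. Alas2, the red cell enzyme that starts heme synthesis, read 9.69, 9.86 and 9.90 in WT and 7.49, 7.80 and 7.90 in E, the largest fall of all (-2.09 ± 0.12, adjusted p = 8.5e-07). Slc4a1, the anion exchanger of the red cell membrane, read 13.30, 13.51 and 13.33 in WT and 12.22, 11.99 and 12.33 in E and fell by 1.20 ± 0.08 (adjusted p = 3.1e-06). Fn3k, which repairs sugar-modified proteins and is abundant in red cells, read 9.05, 9.50 and 9.20 in WT and 7.34, 6.99 and 7.38 in E and fell by 2.02 ± 0.15. Slc25a37, the importer of iron into mitochondria, fell by 0.92 ± 0.07, the beta globin gene Hbb-b2 by 1.47 ± 0.12, and Trim10, needed for terminal red cell differentiation, by 0.51 ± 0.06. Of 20 tested genes of the red cell membrane and hemoglobin 5 fell, of 24 genes of heme synthesis and iron 6 and of 20 red cell transcription factors 5, and 0 rose in all 3 lists. That is 25% of each list, against 5.03% of all tested genes that fell. The counts of falls depended on the setting. With all 9 arrays they were 0, 0 and 1, and with spike-in scaling 3, 2 and 2. Median centring gave 3, 2 and 3 falls beside 1, 2 and 1 rises, and quantile normalization 7, 8 and 6 falls. The medians of the 3 lists were near 0, at -0.11, -0.08 and -0.03, and all 3 were above 0 with median centring. The summed signal of the membrane and hemoglobin list was 17.12 to 17.25 in WT and 17.05 to 17.12 in E.

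With all 9 arrays none of these 6 genes was called, at an adjusted p of 0.17 for Alas2, 0.23 for Slc4a1, 0.063 for Fn3k, 0.46 for Slc25a37, 0.38 for Hbb-b2 and 0.67 for Trim10. The M arrays of Alas2 spread from 8.50 to 11.74. Hbb-b2 was also lost with the mean of probe sets (0.093); it is nearly identical to its neighbouring globin genes, so its probe set may bind their transcripts. The probe sets of the alpha globins carry several gene symbols and were not used, except that of Hba-a1, which was under the filter. The heme count of 6 was 2 without WT replicate 2 or E replicate 1 and 3 without WT replicate 3.

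The promoters of these genes were searched for AGATAA, a sequence bound by the GATA factors of red cells, on both strands, in the same windows. It was chosen after the values were seen, and neither sequence is contained in the other. Of the 16 genes of the 3 red cell lists that fell, 9 had a window and 5 held it (55.6%), against 6.81% of the 7489 tested genes and 11.4% of all genes in the table. They were Alas2, Epb42, Icam4, Sox6 and Trim10. Of these, Epb42, a protein of the red cell membrane (-0.76 ± 0.20), was not called without any 1 array other than WT replicate 3, at an adjusted p between 0.053 and 0.13, or with all 9 arrays (0.61). Likewise, Icam4, a red cell adhesion protein (-0.28 ± 0.06), lost it with all 9 arrays (0.69), either scaling (0.29 with median centring, 0.62 with the spike-ins) and without the trend (0.066). The stretches of the other 3 are shown in gene orientation, with the sequence or its reverse complement TTATCT in capitals, at chrX:150547301-150547366 (plus strand), chr7:115846145-115846210 (minus strand) and chr17:36869381-36869446 (plus strand), where the capitals start 86, 40 and 163 bases before the gene's start.
Alas2: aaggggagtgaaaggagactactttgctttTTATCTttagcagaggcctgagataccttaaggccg
Sox6: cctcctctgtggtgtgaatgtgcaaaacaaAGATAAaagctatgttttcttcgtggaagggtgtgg
Trim10: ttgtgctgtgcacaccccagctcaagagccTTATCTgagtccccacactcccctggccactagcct
Alas2 and Trim10 carried the sequence on the strand opposite to the gene, and Sox6 on the gene's own strand. Here too, members of the red cell lists that did not fall were not compared, so the share cannot be tied to the falls.

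Some genes of mitosis fell, mostly by small amounts. Of 56 tested genes of mitosis and the spindle 14 fell and 0 rose, with a median of -0.16, which was -0.02 with median centring. That share is 25%, against 5.03% of all tested genes that fell. Cdc25b, the phosphatase that starts mitosis, read 9.16, 9.48 and 9.44 in WT and 8.12, 8.02 and 8.16 in E and fell by 1.26 ± 0.11 (adjusted p = 2.9e-05), far more than the others. Nusap1, a spindle protein, read 12.25, 12.34 and 12.31 in WT and 11.79, 11.85 and 11.86 in E and fell by 0.47 ± 0.05. Mki67, a general marker of dividing cells, read 13.26, 13.24 and 13.32 in WT and 12.99, 12.88 and 13.24 in E and was not called (adjusted p = 0.078). It was called lower without E replicate 3 (adjusted p = 0.00645), with quantile normalization (0.0375), with array weights (0.0452) and with the replicate number as a block (0.0457), and in no other setting. The count of 14 fallers was 1 with all 9 arrays, 2 with spike-in scaling, 3 with median centring and 23 with quantile normalization, and 7 without E replicate 2, 8 without WT replicate 2 and 9 without E replicate 1. Nusap1 was lost with all 9 arrays (adjusted p = 0.27). Of 58 genes of DNA replication 3 fell and 0 rose, a share near the 5.03% of all tested genes that fell, with a median of -0.02, which was 0.11 with median centring.

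**Figure D3:**
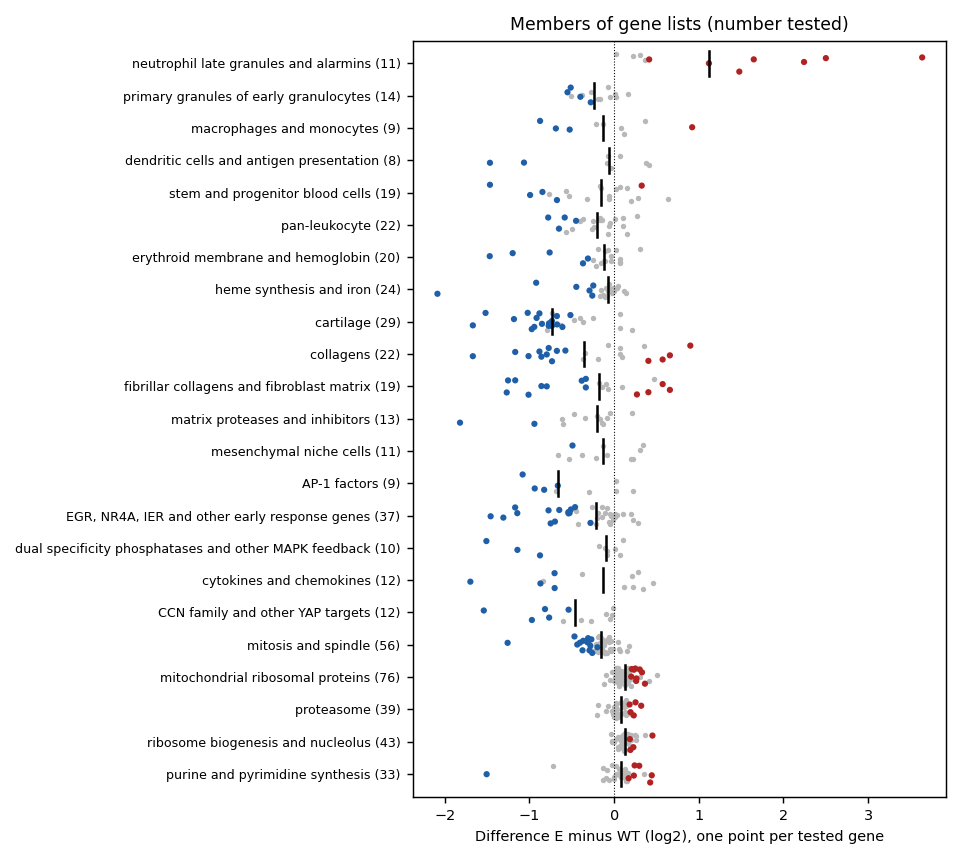
Difference between E and WT (log2, horizontal axis) of every tested member of 23 gene lists, with called genes in red (higher) or blue (lower), other genes in grey and the list's median as a black bar; numbers in brackets are the genes tested. Cartilage genes lie to the left almost to the last, late neutrophil granule genes lie to the right, and the growth machinery lists at the bottom form narrow bands just above 0.

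Transporters and surface enzymes gave single falls of note. Nt5e, the enzyme CD73 that makes adenosine outside the cell, read 8.04, 8.02 and 8.19 in WT and 6.69, 6.39 and 6.66 in E and fell by 1.51 ± 0.16 (adjusted p = 0.00014). The amino acid transporter Slc6a20a fell by 1.25 ± 0.11, a call lost with all 9 arrays (adjusted p = 0.079), and the organic cation transporter Slc22a4 by 0.83 ± 0.11. Of 160 tested solute carriers 1 rose and 11 fell, a called share of 7.5% that is near the 7.90% of all tested genes. Anxa8, a membrane-binding annexin, fell by 1.23 ± 0.18, the serpin Serpina1b by 1.41 ± 0.19, Ddit4l, an inhibitor of mTOR signalling, by 1.40 ± 0.20, Adgrg3, an adhesion receptor of granulocytes, by 0.73 ± 0.11, and Cd59a, which shields cells from complement, by 0.62 ± 0.08. The adhesion receptor Adgre5 (CD97) was the only G protein-coupled receptor of 22 tested that rose, by 0.54 ± 0.09, reading 9.14, 9.25 and 9.29 in WT and 9.62, 9.78 and 9.91 in E. Serpina1b and its neighbours are nearly identical, so its probe set may bind several of them.

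Most called genes stood outside the lists. In all, 162 of the 261 genes that rose and 252 of the 458 that fell belonged to none of the lists or gene families examined. A few are given here that were chosen after their values were seen. Met, the receptor of hepatocyte growth factor, averaged 7.23 in WT and 5.87 in E and fell by 1.36 ± 0.22. Gch1, the first enzyme of tetrahydrobiopterin synthesis, read 10.07, 10.29 and 10.27 in WT and 9.07, 8.94 and 8.81 in E and fell by 1.27 ± 0.09 (adjusted p = 5.7e-06). Tmod1, a protein that caps actin filaments under the red cell membrane, fell by 1.37 ± 0.16, Inhba, a subunit of activin A, by 1.10 ± 0.20, and Mgp, an inhibitor of calcification, by 0.67 ± 0.08. Among rises, the nuclear transport receptor Xpo7, which is abundant in maturing red cells, read 9.80, 9.75 and 9.69 in WT and 10.23, 10.39 and 10.52 in E and rose by 0.63 ± 0.08 (adjusted p = 0.00054). With all 9 arrays Gch1 (0.28), Tmod1 (0.25), Inhba (0.1) and Xpo7 (0.6) were no longer called, each value being the adjusted p.

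The Wnt and Notch pathways had no called gene. Of 9 tested genes of the Wnt pathway and its antagonists and of 9 of the Notch pathway none was called by limma. Many members of these lists were under the filter, 24 of 33 for Wnt and 11 of 20 for Notch, so most of these genes were not tested. The number of such genes at an unadjusted p under 0.05 was 1 for Wnt and 1 for Notch. On simulated data made from these arrays, 59.8% of genes with a true difference of 0.5 and 89.7% with a difference of 1 were recovered, with 6.75 false calls on average among 9097 genes with 200 changed. The simulated noise was independent between genes, with no shift of whole arrays. The simulation thus does not cover the dependence on scale given above. Its recovery is an average over tested genes of all levels and not that of dim genes.

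Other probe sets of the same genes mostly pointed the same way. Of 182 other probe sets over the filter for genes that rose, 153 (84.1%) were higher in E, and of 376 for genes that fell, 330 (87.8%) were lower. When each gene was given the mean of its probe sets, 277 genes were called, 245 of them among the 719.

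The levels in the medium phase are set beside these without a test, since both phases share the WT arrays. The M arrays stand apart in scale: their poly-A control RNAs read 9.88 to 10.44 against 8.94 to 9.27 in WT and E, and the median of all their probe sets was 6.24 to 6.28 against 5.43 to 5.68. The values below are not adjusted for this shift, and its part in the M levels was not tested. Chil3 averaged 6.67 in WT, 10.31 in E and 14.74 in M, and Camp 7.18, 8.66 and 12.40, each higher in E and higher again in M. Prg2 averaged 9.20, 10.82 and 10.98, with M arrays around the E arrays. Of genes that fell, Ccn2 averaged 12.74, 11.21 and 14.56, Fn1 11.21, 9.96 and 14.11, Ptgs2 10.07, 8.59 and 12.69, Jun 11.31, 10.23 and 12.43, and Col2a1 12.87, 12.10 and 14.32. These were lower in E than in WT and read higher in M than in either, which for Jun is a difference from WT about as large as the shift of the control RNAs. Irf8, which also fell, averaged 9.28, 8.22 and 8.22, with M near E. Col1a1 averaged 10.68, 11.33 and 13.10, higher at each step.

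**Figure D4:**
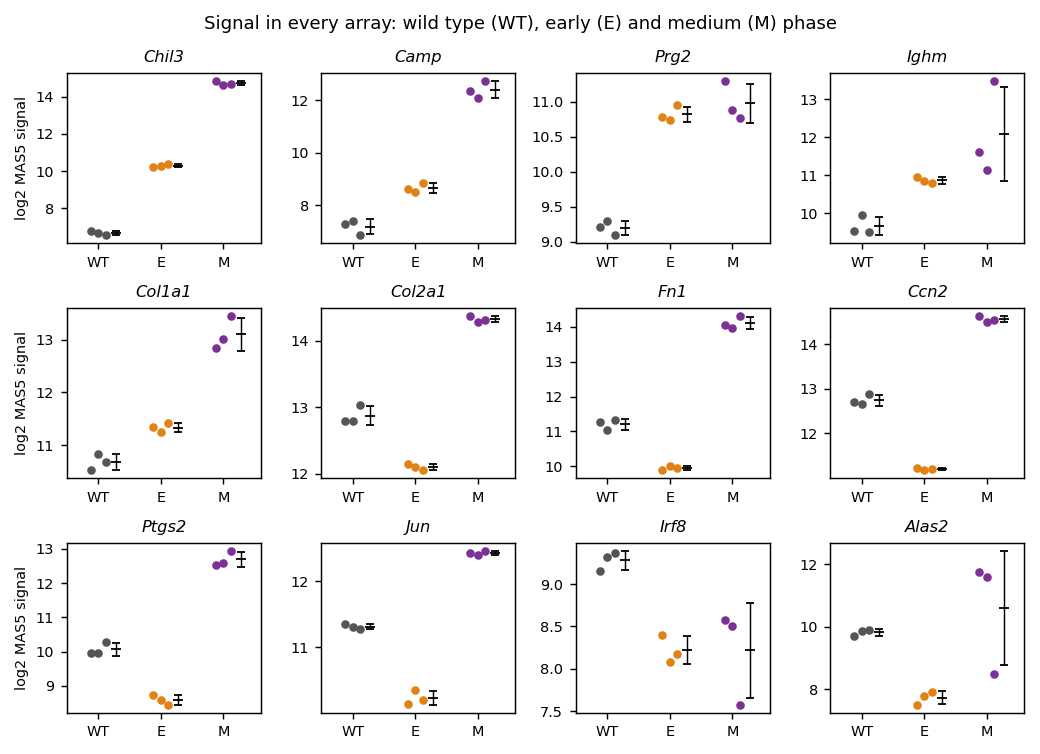
log2 MAS5 signal (vertical axis, scaled per gene) in each array of WT, E and M for 12 genes, with points as arrays and the bar beside them as mean ± SD (n = 3). Chil3, Camp and Col1a1 step up from group to group, while Col2a1, Fn1, Ccn2, Ptgs2 and Jun dip in E and stand highest in M.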

How the data were processed

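RNA of sorted marrow stroma (FVB/NJ mice) was measured on Affymetrix mouse arrays after 3' labelling of Trizol RNA. The deposited values are log2 signals made by the authors with MAS5, per the submitters' processing notes, with no version given; in every array the trimmed mean of the linear signal was 500.0. Values were used as deposited. Of 45101 probe sets, 34958 carried 1 gene symbol in the array's annotation, 932 several and 9211 none listed; only the first kind was used. E and WT were fitted together with limma 3.58.1 in R 4.3.3 (moderated test with an intensity trend, 6 arrays, no covariate), with Benjamini-Hochberg adjustment over the 9097 genes. Only the 6 arrays entered, because the M arrays spread more widely. The number of arrays limits the precision. The members, gene lists, families and tests were chosen with earlier results of these data known. Named genes were the 20 largest rises and falls, up to 5 members of a list in each direction by smallest p (or 2 where none was called), and a fixed set; the text gives part of them, and says where others were chosen after seeing values. Promoter stretches are from RefSeq, GRCm38.p6. The fit was tested on simulated data. Python 3.11.15, pandas 2.3.3 and matplotlib 3.10.9 did the rest.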

Additional observations from a re-analysis of the deposited data

How the results depend on the processing

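Against 719 called genes (261 higher, 458 lower), all 9 arrays gave 187 (41 and 146), a filter that kept the 4549 brightest genes 448 (208 and 240), no brightness filter 515 (166 and 349), median centring 1534 (1269 and 265), spike-in scaling 265 (52 and 213), limma without the trend 360 (82 and 278), and probe sets averaged per gene 277 (87 and 190). Leaving out 1 array gave 381 to 568 genes, 100 to 226 higher and 271 to 375 lower. The other settings, a filter over 9 arrays, quantile normalization, pseudocounts of 16 and 64, robust estimation, array weights and leaving out less specific probe sets, stayed within 1.5 times of each count. The cause of these shifts was not tested, beyond the smaller number of genes or arrays where that is the setting itself. With the replicate number as a block, 590 genes were called, 559 of them among the 719; same-numbered WT and E arrays correlated at 0.027, -0.046 and -0.061 in their deviations, so the numbers do not pair the arrays. Of 123 called genes named in the text, 79 were called in every setting that tested them and 115 without each array in turn; 31 were lost with all 9 arrays, 13 with spike-in scaling and 14 with the mean of probe sets. No direction of these named genes turned. Among all calls that the setting tested, 649 of 675 kept their direction with the mean of probe sets. With less specific probe sets left out 689 of 697 did. Signal over background limits the rest: of 18193 genes, those under the filter were not tested in the chosen setting.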

Other observations

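Probe sets without a single gene symbol were compared in the same way. Of 10092 such probe sets 2026 passed the same brightness filter, and 19 were higher and 37 lower in E (2.76%, limma, Benjamini-Hochberg within this set), with 341 at an unadjusted p under 0.05.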
